A study of Homo sapiens with 6 samples.

Results

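The genes described here are those of glycolysis and of the cell's response to low oxygen: 34 genes named by symbol, from the glucose transporters through the glycolytic enzymes in order to targets of hypoxia-inducible factor (HIF). Of them, 31 matched a row among the 14821 genes of the table of read counts, and 30 had enough counts to be tested. ALDOC, EGLN3 and ADM were not analysed here, and ANKRD37, at 0.313 to 1.47 CPM (counts scaled to a common library total, with TMM factors), did not pass the filter on low counts. The RNA came from F36P, an established human erythroleukaemia cell line. The cells of 3 libraries carried the retrovirus MSCV-PIG-AM-ERG, which adds ERG, an ETS family regulator of transcription, while those of the other 3 carried the empty retrovirus MSCV-PIG (vector). Both groups had been selected in puromycin, at 1 µg/ml over 4 days, before bulk sequencing of poly-A RNA. Both are 1 cell line, and ERG is driven by the retroviral vector, not by its own promoter. The submitters asked how ERG blocks red cell differentiation, and the replicates, called biological, are not tied by the labels to separate transductions, so each p-value covers the spread among these 6 libraries, which may be technical.

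Glycolysis splits glucose into pyruvate in a chain of enzyme steps and yields ATP without oxygen. The cell sets its rate at glucose entry, at hexokinase, at phosphofructokinase and at pyruvate kinase, and several steps have more than one gene, whose products differ in regulation and tissue. Pyruvate is either reduced to lactate by lactate dehydrogenase or taken into mitochondria, where pyruvate dehydrogenase kinases (PDK) restrain its oxidation. When oxygen is low, the prolyl hydroxylases of the EGLN family no longer mark HIF1A protein for breakdown. HIF then raises transcription of most glycolytic genes and of genes such as VEGFA and BNIP3 by binding short core sequences such as ACGTG. Red cells that have lost their mitochondria live on glycolysis alone, and they use their own pyruvate kinase gene, PKLR. HIF1A is controlled mainly through its protein, which counts of messenger RNA do not show.

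ERG messenger RNA itself stood at 97.4, 103 and 104 CPM with ERG virus and 28.1, 14.6 and 22.4 CPM with vector (log2 fold change 2.23, edgeR adjusted p = 0.011). That p was 0.0716 when ERG replicate 1 was left out, 0.0729 for ERG replicate 2 and 0.0544 for vector replicate 3. Of all tested genes 0, 0 and 51 passed in those fits. Library totals ran from 10257141 to 14803031 counts. All 8 erythroid markers looked up were detected, while of 12 markers of epithelial, stromal, lymphoid and monocytic cells 5 had a row. Of those, 4 lay between 0.305 and 8.71 CPM and the fifth, LYZ, reached 65.5 to 87.5 CPM with ERG and 92.8 to 201 CPM with vector. ERG replicates 1 and 2 resembled each other closely (chi-square per degree of freedom 2.20, against 21.6 to 86.9 for the remaining pairs). Across genes vector replicate 1 correlated better with them (r = 0.967 and 0.966) than with vector replicates 2 and 3 (0.957 and 0.954), and ERG replicate 3 correlated better with vector replicates 2 and 3 (0.965 and 0.974) than with ERG replicates 1 and 2 (0.962 with each). The libraries thus fall into set A (ERG 1, ERG 2 and vector 1) and set B (ERG 3, vector 2 and vector 3), which are not groups of the study. A fit with the set as a term is given where it changes the call of a member. The set was read from these libraries, so p-values with it may be too low.

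The promoters below are shown because HIF acts through core sequences such as ACGTG, and because their genes carry the main patterns. LDHA and PGK1 differed widely between libraries of the same group, BNIP3 was the scarcest tested member, SLC2A1 is a glucose transporter whose groups did not overlap, and PKLR is the pyruvate kinase gene that fell with ERG. Each sequence is the 250 bases before the outermost start site listed by RefSeq (GRCh38.p14), 5′ to 3′ on the gene's strand, with ACGTG on either strand in capitals (CACGTG holds it on both).
LDHA (chr11:18394313-18394562, plus strand): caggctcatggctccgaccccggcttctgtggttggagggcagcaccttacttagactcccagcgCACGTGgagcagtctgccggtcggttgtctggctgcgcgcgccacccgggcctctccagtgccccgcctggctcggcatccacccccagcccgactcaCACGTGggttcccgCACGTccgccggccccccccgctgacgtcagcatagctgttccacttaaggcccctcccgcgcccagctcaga
PGK1 (chrX:78103998-78104247, plus strand): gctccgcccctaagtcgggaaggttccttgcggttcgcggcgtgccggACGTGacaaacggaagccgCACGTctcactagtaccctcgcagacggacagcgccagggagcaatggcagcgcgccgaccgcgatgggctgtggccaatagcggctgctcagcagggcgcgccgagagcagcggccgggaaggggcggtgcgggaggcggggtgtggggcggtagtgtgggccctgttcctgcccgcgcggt
BNIP3 (chr10:131981924-131982173, minus strand): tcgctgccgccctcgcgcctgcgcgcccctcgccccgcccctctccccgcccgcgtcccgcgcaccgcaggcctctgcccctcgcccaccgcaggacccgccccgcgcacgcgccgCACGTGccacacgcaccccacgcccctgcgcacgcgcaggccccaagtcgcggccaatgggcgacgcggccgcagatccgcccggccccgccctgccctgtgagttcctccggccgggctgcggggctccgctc
SLC2A1 (chr1:42958869-42959118, minus strand): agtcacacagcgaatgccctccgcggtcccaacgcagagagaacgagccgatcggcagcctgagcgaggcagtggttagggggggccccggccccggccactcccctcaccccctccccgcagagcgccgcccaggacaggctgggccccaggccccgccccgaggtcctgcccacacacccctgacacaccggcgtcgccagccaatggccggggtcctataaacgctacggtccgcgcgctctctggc
PKLR (chr1:155301439-155301688, minus strand): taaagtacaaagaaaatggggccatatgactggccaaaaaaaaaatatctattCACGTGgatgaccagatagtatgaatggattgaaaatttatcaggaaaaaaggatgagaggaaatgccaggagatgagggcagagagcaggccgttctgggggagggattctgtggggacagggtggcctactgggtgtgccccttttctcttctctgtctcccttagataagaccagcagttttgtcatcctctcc
The LDHA window held 3 such sites, from 185 to 73 bases before the start, the PGK1 window 2, the BNIP3 and PKLR windows 1 each and the SLC2A1 window 0. Promoters were found for 27 of the 30 tested members (SLC2A3, VEGFA and BNIP3L had no entry), and 11 of the 27 (40.7%) held ACGTG. The share was 23.4% of the 10168 promoters of tested genes that matched, and 18.6% of all 27305 promoters. The ETS sequence CCGGAA, also searched on both strands, was in 4 of the 27 (14.8%). It was in 26.0% of the promoters of tested genes and in 14.8% of all 27305 promoters. These matches describe letters in a window, not binding. Of the HIF core sequences only ACGTG was searched, so the counts may miss other forms of the site.

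None of the 30 tested members passed as changed by ERG. In edgeR's quasi-likelihood test 0 of 30 had an adjusted p under 0.05, where 2.20% of all 14203 tested genes did (1.47% higher and 0.732% lower with ERG). At an unadjusted p under 0.05 stood 4 members (13.3%), against 15.9% of all genes. DESeq2 called 1 member, SLC2A3, with a background of 7.08%. The members' median log2 difference was 0.01, that of all tested genes -0.01, and 16 members were positive and 14 negative. The groups did not overlap for 5 members (16.7%), against 21.9% of all genes. For 21 of the 30 the whole 95% interval lay within a 2-fold difference either way, as it did for 8827 of the 14203 tested genes. For the other 9 members a larger difference lay within the interval. In bulk RNA a change in the share of a kind of cell and a change of RNA per cell cannot be told apart.

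**Figure D1:**
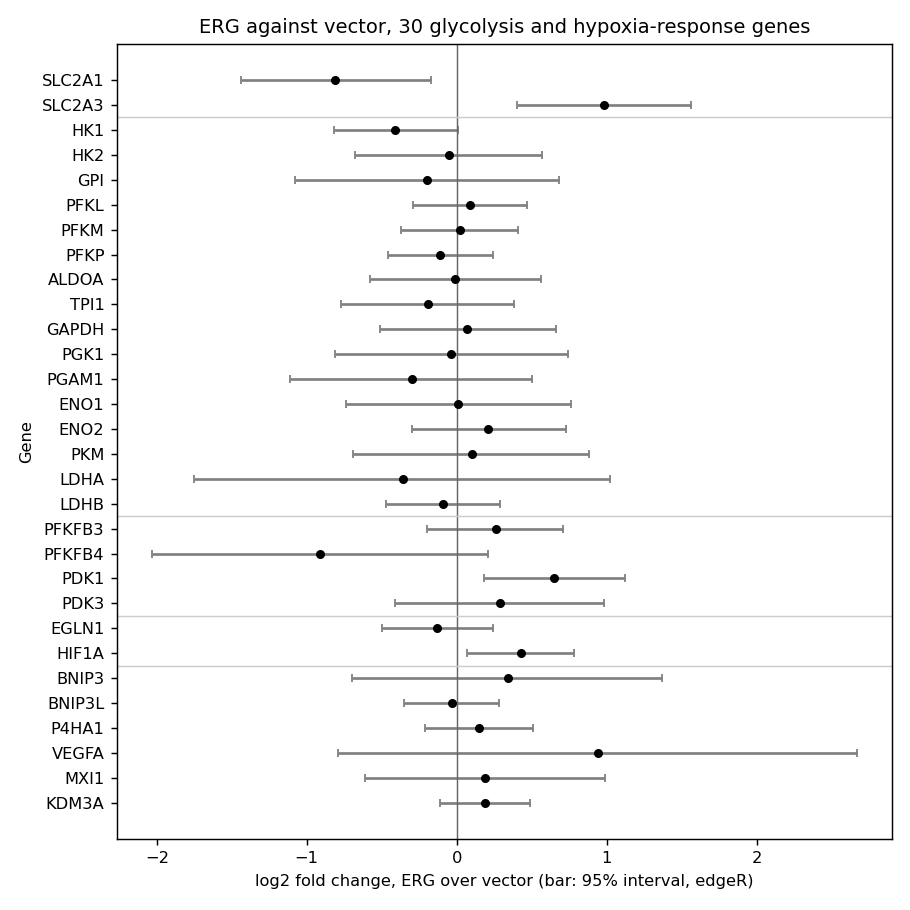
Log2 fold change of ERG over vector for the 30 tested members, grouped by role from top to bottom (transporters, enzymes, regulators, oxygen sensing, hypoxia-induced genes). Points are edgeR estimates and bars their 95% intervals. The largest values are SLC2A3 at 0.98, VEGFA at 0.94, PFKFB4 at -0.91 and SLC2A1 at -0.81, while the 16 enzymes lie between -0.41 and 0.21.

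The 2 glucose transporters had differences of opposite sign, and SLC2A3 had the lowest p of all members. SLC2A1 encodes GLUT1, the main carrier of red cells (chromosome 1, 42925375 to 42959176, hg38, GENCODE release 29). It was at 68.4, 69.3 and 114 CPM with ERG and at 119, 196 and 126 CPM with vector. All ERG libraries were below all vector libraries, with ERG replicate 3 close to vector replicate 1. The means were 84.1 ± 26.3 CPM with ERG and 147 ± 42.4 CPM with vector (SD, n = 3 each; log2 difference -0.81, SE 0.27, edgeR adjusted p = 0.207). SLC2A3 encodes GLUT3, a carrier of high glucose affinity (chromosome 12, 7919230 to 7936275). It was at 107, 111 and 80.3 CPM with ERG and at 66.5, 50.0 and 34.6 CPM with vector, again without overlap. The means were 99.5 ± 16.7 CPM with ERG and 50.4 ± 16.0 CPM with vector (log2 difference 0.98, SE 0.25, edgeR adjusted p = 0.104). With the library set as a term both passed, SLC2A1 as lower (log2 -0.64, edgeR adjusted p = 0.026) and SLC2A3 as higher (log2 0.81, 0.00429). With that term 13.2% of all genes passed. DESeq2 gave SLC2A3 an adjusted p of 0.0113 and SLC2A1 one of 0.0706. SLC2A3 also passed without vector replicate 1 (log2 1.23, edgeR adjusted p = 0.0432), as did 3.10% of all genes. It did not pass with any other library left out (edgeR adjusted p = 0.0722 to 0.37). Nor did it pass with ERG replicates 1 and 2 summed and no set term (0.362). With the set term and ERG replicates 1 and 2 counted as 1 library, SLC2A3 had an adjusted p of 0.0115 and SLC2A1 one of 0.0724, with 7.05% of all genes past the threshold.

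The ratio of the 2 transporters within a library does not depend on scaling. SLC2A3 had 1.57, 1.60 and 0.702 counts per count of SLC2A1 with ERG and 0.560, 0.256 and 0.274 with vector. The ratio was above 1 in ERG replicates 1 and 2 and below 1 in the other 4 libraries. The mean log2 ratio was 0.27 ± 0.68 with ERG and -1.56 ± 0.63 with vector, a difference of 1.83 (two-sided exact permutation test p = 0.1, the smallest possible with 3 against 3; adjusted over 9 pairs of genes 0.45). Per kilobase of exon, SLC2A1 stood at 17.8 ± 5.57 and SLC2A3 at 16.1 ± 2.71 CPM with ERG, against 31.1 ± 8.99 and 8.18 ± 2.59 CPM with vector. Per length the 2 genes thus lay within 1 SD of each other with ERG, and SLC2A1 was above SLC2A3 by more than their SDs with vector.

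**Figure D2:**
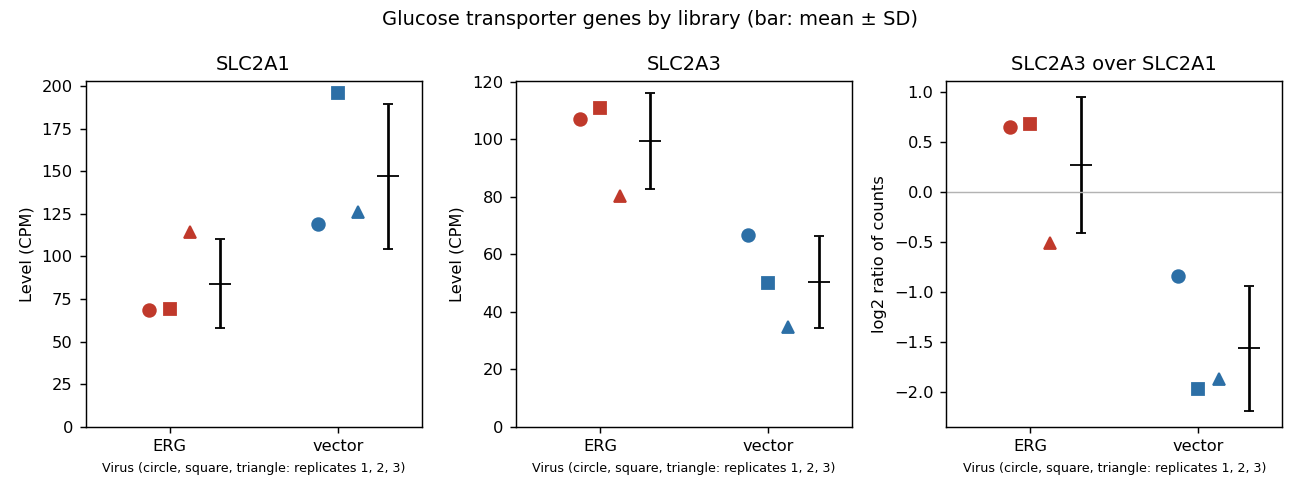
Level of SLC2A1 and SLC2A3 in CPM and the log2 ratio of their counts, by library, ERG left and vector right. Symbols are replicates and bars mean ± SD (n = 3). SLC2A1 lies at 68.4 to 114 CPM with ERG and 119 to 196 CPM with vector, SLC2A3 at 80.3 to 111 CPM with ERG and 34.6 to 66.5 CPM with vector.

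Of the 16 glycolytic enzyme genes tested, 0 passed in edgeR, 0 had an unadjusted p under 0.05, 0 passed in DESeq2, and 0 had groups that did not overlap. The shares over all genes were 2.20%, 15.9%, 7.08% and 21.9%. The median log2 difference of the 16 enzyme genes was -0.05. Hexokinase, which traps glucose in the cell, is encoded here mainly by HK1 and HK2. HK1 was at 500, 482 and 626 CPM with ERG and 604, 777 and 751 CPM with vector. Its difference was the most negative of the enzymes (log2 -0.41, SE 0.18, 95% interval -0.82 to 0.01, edgeR adjusted p = 0.324), and ERG replicate 3 lay above vector replicate 1. HK2, the form that HIF induces, was at 97.9, 102 and 151 CPM with ERG and 81.2, 131 and 152 CPM with vector, so the groups covered the same range.

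The next enzyme, glucose-6-phosphate isomerase (GPI), was at 213, 219 and 474 CPM with ERG and 226, 347 and 465 CPM with vector. Phosphofructokinase commits sugar to glycolysis and is built from the liver, muscle and platelet type subunits. The liver type PFKL was at 192, 191 and 206 CPM with ERG and 187, 150 and 218 CPM with vector. The muscle type PFKM was at 65.1 ± 10.5 CPM with ERG and 64.2 ± 8.70 CPM with vector (SD, n = 3 each). The platelet type PFKP was at 72.8 ± 6.03 CPM with ERG and 78.5 ± 11.8 CPM with vector. The intervals of the 3 subunits ran from -0.46 to 0.47 on the log2 scale. ALDOA, the aldolase of most tissues, was at 57.6 ± 16.4 CPM with ERG and 58.0 ± 13.1 CPM with vector. It shares exons with another annotated gene of the same strand, so its level is uncertain. TPI1, which interconverts the triose phosphates, was at 288 ± 99.7 CPM with ERG and 330 ± 36.6 CPM with vector.

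The later steps begin with GAPDH, which had 1811, 1717 and 2584 CPM with ERG and 1559, 1831 and 2424 CPM with vector, and was the most counted member. PGK1, the first ATP-yielding step, had 308, 292 and 571 CPM with ERG and 262, 437 and 503 CPM with vector. PGAM1, the mutase, had 94.0, 86.4 and 190 CPM with ERG and 105, 162 and 189 CPM with vector. In all of these replicate 3 was the highest ERG library and lay above every vector library. ERG replicates 1 and 2 lay within the vector range for GAPDH and PGK1 and below it for PGAM1. The enolase ENO1 had 973, 962 and 1786 CPM with ERG and 836, 1475 and 1388 CPM with vector, and the neuronal form ENO2 had 69.2 ± 5.81 CPM with ERG and 59.7 ± 17.0 CPM with vector. PKM, the pyruvate kinase of most growing cells, had 708, 709 and 1326 CPM with ERG and 553, 928 and 1086 CPM with vector. Its log2 difference was 0.10 (edgeR adjusted p = 0.909). The fit with the library set gave 0.38, past the threshold (0.0403). With ERG replicates 1 and 2 also counted as 1 library PKM did not pass (0.169).

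Lactate dehydrogenase holds both the most variable and the steadiest enzyme gene. LDHA, whose subunit favours lactate formation, had 163, 164 and 575 CPM with ERG and 167, 489 and 505 CPM with vector. It was low in ERG replicates 1 and 2 and vector replicate 1, and high in the other 3 libraries. The highest library held 3.53 times the lowest. LDHB, the heart type subunit, had 838, 835 and 1029 CPM with ERG and 890, 968 and 1017 CPM with vector, a ratio of 1.23 between its extremes. LDHA had a log2 difference of -0.36 with a 95% interval of -1.75 to 1.02, so a difference of 2-fold in either direction lay within it. LDHB had -0.09, with a 95% interval of -0.47 to 0.29.

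**Figure D3:**
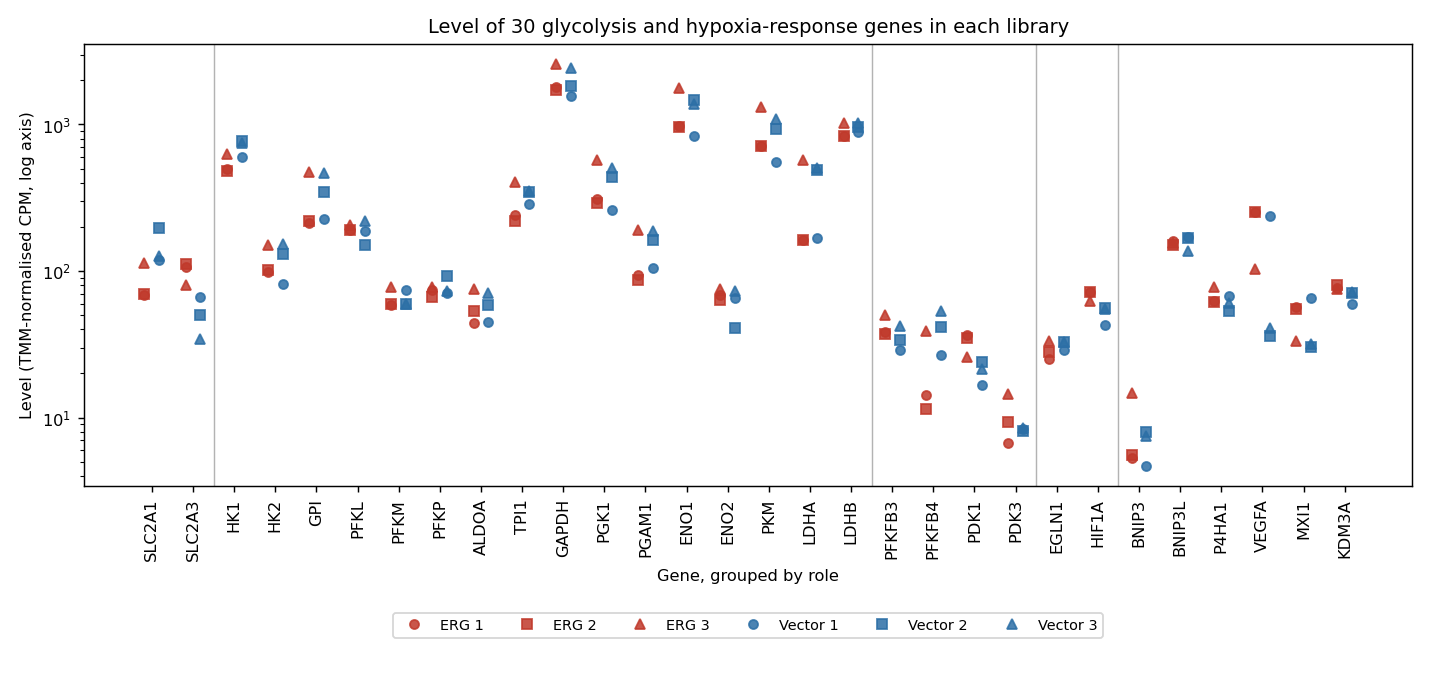
Level of the 30 tested members in each library, in TMM-normalised CPM on a log axis, grouped by role. Red symbols are ERG and blue symbols vector libraries, with circle, square and triangle for replicates 1, 2 and 3. The levels span from 4.67 CPM for BNIP3 to 2584 CPM for GAPDH, and 5 genes have groups that do not overlap (16.7%, against 21.9% of all tested genes).

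Per kilobase of exon, which allows genes to be set beside each other, GAPDH led with 683 ± 160 CPM with ERG and 650 ± 148 CPM with vector. LDHB followed at 302 ± 37.2 CPM with ERG and 321 ± 21.4 CPM with vector, and ENO1 at 235 ± 89.6 CPM with ERG and 234 ± 65.7 CPM with vector. GAPDH lay above LDHB by more than their SDs, while LDHB and ENO1 overlapped within their SDs with ERG. PKM at 107 ± 41.6 CPM with ERG and 99.8 ± 32.0 CPM with vector, TPI1 at 107 ± 36.9 CPM with ERG and 122 ± 13.5 CPM with vector, and HK1 at 85.1 ± 12.4 CPM with ERG and 113 ± 14.8 CPM with vector overlapped within their SDs. The lowest 3 tested members were PDK1, at 2.19 ± 0.386 CPM with ERG and 1.39 ± 0.246 CPM with vector, PDK3, at 2.05 ± 0.804 CPM with ERG and 1.68 ± 0.0369 CPM with vector, and BNIP3, at 1.59 ± 0.994 CPM with ERG and 1.26 ± 0.339 CPM with vector. The exon length is that of all annotated exons together, longer than most transcripts, which lowers the levels of genes with many isoforms.

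Some members have near-identical copies elsewhere, between which reads may be split, and the table has rows for 11 of their processed pseudogenes and for PGAM4, a copy of PGAM1. TPI1P1 held 11878 counts over the 6 libraries, 50.2% as many as TPI1, so the level of TPI1 is uncertain. LDHAP4 held 1623, 6.14% of LDHA. The 4 GAPDH copies held at most 1.53% of the GAPDH counts each. BNIP3P28, BNIP3P1 and BNIP3P12 held 59.9%, 34.6% and 10.2% of the 599 counts of BNIP3, so the level of BNIP3 is uncertain. None of the 12 copies passed (lowest edgeR adjusted p = 0.095, BNIP3P12).

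Of 4 genes that steer glycolytic flux, 0 passed in edgeR and 0 in DESeq2, and 1 had an unadjusted p under 0.05. The shares over all genes were 2.20%, 7.08% and 15.9%. PFKFB3 and PFKFB4 make and break fructose 2,6-bisphosphate, the activator of phosphofructokinase. PFKFB4 (chromosome 3, 48517684 to 48562015) was at 14.2, 11.4 and 39.2 CPM with ERG and 26.6, 41.6 and 53.6 CPM with vector. ERG replicates 1 and 2 were below every vector library, and ERG replicate 3 was not. The log2 difference was -0.91 (SE 0.48, edgeR adjusted p = 0.412). Without ERG replicate 3 it was -1.66 and passed (0.0491), as did 3.10% of all genes. PFKFB3 was at 41.9 ± 7.49 CPM with ERG and 35.1 ± 6.52 CPM with vector. The ratio of PFKFB4 to PFKFB3 counts was 0.369, 0.310 and 0.776 with ERG and 0.912, 1.22 and 1.27 with vector, without overlap (difference of log2 ratios -1.33, two-sided exact permutation p = 0.1, the smallest possible, adjusted over 9 pairs 0.45).

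PDK1 phosphorylates pyruvate dehydrogenase and so keeps pyruvate out of the mitochondrial cycle (chromosome 2, 172555373 to 172608669). It was at 36.8, 34.9 and 26.0 CPM with ERG and 16.7, 23.9 and 21.5 CPM with vector, every ERG library above every vector library. Its log2 difference of 0.65 (SE 0.20, 95% interval 0.18 to 1.12) had an unadjusted p of 0.0137 and an edgeR adjusted p of 0.173. The difference was 1.09 on the log2 CPM scale within set A and 0.20 within set B. PDK3, another kinase of the same enzyme, was at 6.73, 9.26 and 14.5 CPM with ERG and 8.36, 8.15 and 8.51 CPM with vector, high in ERG replicate 3 alone.

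Among the genes of oxygen sensing, HIF1A, the regulated subunit of HIF (chromosome 14, 61695513 to 61748259), was at 71.6, 72.5 and 62.2 CPM with ERG and 42.5, 55.7 and 55.2 CPM with vector. The groups did not overlap, and vector replicate 1 was the lowest. The means were 68.7 ± 5.69 CPM with ERG and 51.1 ± 7.48 CPM with vector (log2 difference 0.43, SE 0.15, edgeR adjusted p = 0.232), and the fit with the library set gave an adjusted p of 0.0526. EGLN1, the main hydroxylase that marks HIF1A for breakdown and itself a HIF target, was at 28.8 ± 4.12 CPM with ERG and 31.5 ± 2.38 CPM with vector (95% interval of the log2 difference -0.50 to 0.24).

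Of 6 tested hypoxia-induced genes outside glycolysis, 0 passed in edgeR or DESeq2 and 0 had an unadjusted p under 0.05. Over all genes these shares were 2.20%, 7.08% and 15.9%. VEGFA, the vessel growth factor (chromosome 6, 43770184 to 43786487), was at 254, 251 and 103 CPM with ERG and 239, 36 and 40.9 CPM with vector. It was high in ERG replicates 1 and 2 and in vector replicate 1, intermediate in ERG replicate 3 and low in vector replicates 2 and 3. Its log2 difference of 0.94 had a 95% interval of -0.79 to 2.67 (edgeR adjusted p = 0.577). Without vector replicate 1 it was 2.40 and passed (0.0385), as did 3.10% of all genes. Within set A the difference was 0.07 and within set B 1.4 on the log2 CPM scale. MXI1, a MYC antagonist, was at 56.5, 55.2 and 33.1 CPM with ERG and 65.3, 30.1 and 31.8 CPM with vector, high in the same libraries as VEGFA.

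BNIP3 and BNIP3L mark mitochondria for removal, and BNIP3L (also called NIX) does so as red cells mature. BNIP3L was at 160, 151 and 156 CPM with ERG and 172, 168 and 138 CPM with vector (log2 difference -0.03, 95% interval -0.35 to 0.28), among the steadiest members. BNIP3 was at 5.32, 5.55 and 14.6 CPM with ERG and 4.67, 8.0 and 7.53 CPM with vector, on 53 to 215 counts per library. P4HA1, a collagen prolyl hydroxylase, was at 67.2 ± 9.02 CPM with ERG and 60.7 ± 7.13 CPM with vector. KDM3A, a histone demethylase, was at 76.1, 79.9 and 75.2 CPM with ERG and 59.7, 70.6 and 72.1 CPM with vector. Its groups did not overlap, yet the log2 difference was only 0.19 (95% interval -0.11 to 0.49, edgeR adjusted p = 0.508).

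Over all 6 libraries, both groups together, the highest library was at least 2-fold above the lowest for 14 of the 30 members and for 5425 of the 14203 tested genes. The median of that ratio was 1.86 for the members and 1.77 for all tested genes. Differences between the groups count into it, as for SLC2A1, SLC2A3 and PDK1. The 16 enzymes together held 6383, 6223 and 10225 CPM with ERG and 6012, 8293 and 9327 CPM with vector. The sum was thus high in ERG replicate 3 and vector replicates 2 and 3, and low in ERG replicates 1 and 2 and vector replicate 1. Without GAPDH it was 4573, 4505 and 7641 CPM with ERG and 4453, 6462 and 6903 CPM with vector. ERG replicates 1 and 2 and vector replicate 1 were also the lowest 3 libraries for all enzymes but the PFK subunits and ENO2, and also for PFKFB4, BNIP3 and EGLN1. They were the highest for VEGFA and MXI1. The sets were read from these same libraries, so this is a description without a test, and what sets these libraries apart was not tested.

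**Figure D4:**
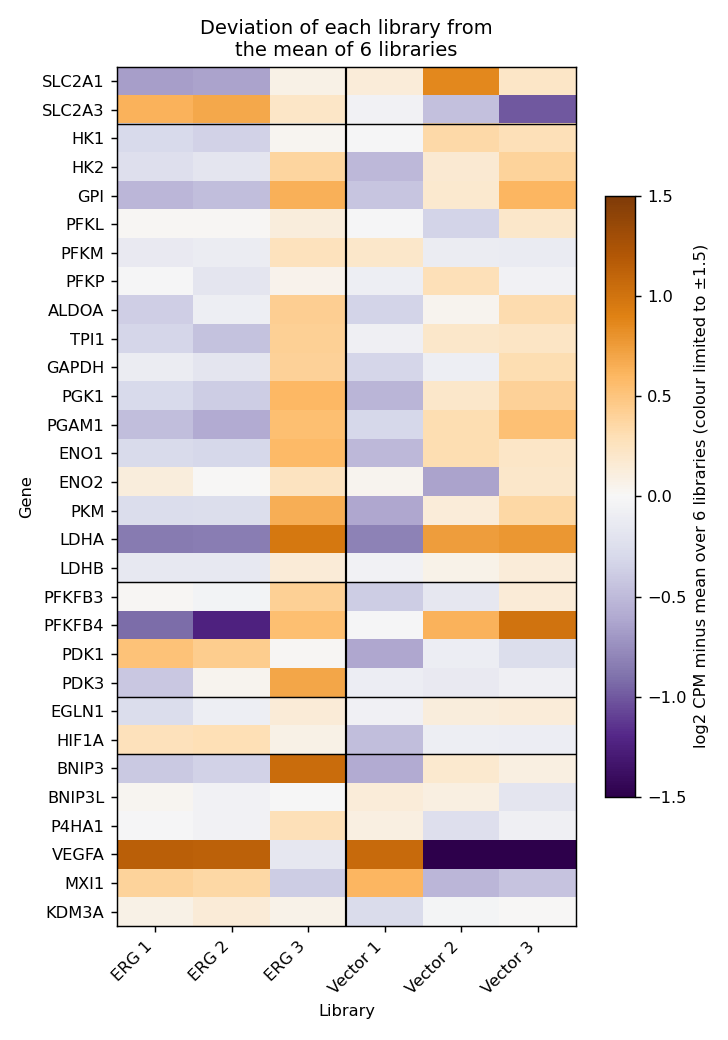
Deviation of each library from the mean of the 6 libraries, in log2 CPM, for the 30 tested members in rows and the libraries in columns, ERG left of the line and vector right of it (colour limited to 1.5 either way). LDHA is low in ERG 1, ERG 2 and vector 1 and high in the other 3 libraries, VEGFA and MXI1 run the other way, and SLC2A1 and SLC2A3 differ between the groups.

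Ratios between genes of one step were computed for 9 pairs. Besides the transporter and PFKFB pairs, 7 had overlapping groups. The LDHA to LDHB ratio was 0.195, 0.196 and 0.559 with ERG and 0.187, 0.505 and 0.497 with vector, low in ERG replicates 1 and 2 and vector replicate 1 (difference of log2 ratios -0.38, two-sided exact permutation p = 1, where 0.1 is the smallest possible). The HK1 to HK2 ratio was 5.10, 4.71 and 4.14 with ERG and 7.44, 5.92 and 4.93 with vector (difference of log2 ratios -0.38, exact permutation p = 0.2, adjusted over the pairs 0.6). The exact permutation p of the other 5 pairs lay between 0.5 and 0.8.

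Genes of the neighbouring pathways were described from 5 further lists, of which 83 genes were tested. Of these 3 passed (PKLR, MPC2 and HIF3A), all lower with ERG, and 12 had an unadjusted p under 0.05. Over all genes 2.20% passed, 0.732% as lower, and 15.9% had an unadjusted p under 0.05. In the list of other glycolysis genes 1 of 17 fell, PKLR, the pyruvate kinase of red cells and liver (chromosome 1, 155289293 to 155301438). It was at 83.2, 80.5 and 104 CPM with ERG and 240, 290 and 286 CPM with vector. All ERG libraries were far below all vector libraries. The fall was 3.04-fold (log2 -1.61, SE 0.16, edgeR adjusted p = 0.01), with -1.55 within set A and -1.46 within set B on the log2 CPM scale. The call was lost with ERG replicate 1, ERG replicate 2 or vector replicate 2 left out, at log2 values of -1.56, -1.53 and -1.56 (edgeR adjusted p = 0.0777, 0.0729 and 0.0538). Of all tested genes 0, 0 and 19 passed in those fits. PKLR also passed in DESeq2 (adjusted p = 2.15e-17) and with the set term (edgeR adjusted p = 2.76e-05). Per kilobase of exon PKLR stood at 28.2 ± 4.12 CPM with ERG and 85.8 ± 8.70 CPM with vector, beside PKM at 107 ± 41.6 CPM with ERG and 99.8 ± 32.0 CPM with vector. Per length PKM was above PKLR with ERG by more than their SDs, while with vector they overlapped within their SDs. The 8 erythroid markers summed to 3088 to 5506 CPM with ERG and 9385 to 15404 CPM with vector, and 4 of the 8 fell (KLF1, EPOR, HBG1 and HBG2). None of the 8 was at 0, and their part in the results for PKLR, MPC2 and HIF3A was not tested. BPGM, which makes the red cell's 2,3-bisphosphoglycerate and was chosen after its values were seen, was at 9.39 ± 1.16 CPM with ERG and 12.2 ± 2.17 CPM with vector (edgeR adjusted p = 0.454).

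In the list of pyruvate entry into mitochondria 1 of 11 fell (0.732% of all genes did), MPC2, a subunit of the mitochondrial pyruvate carrier (chromosome 1, 167916729 to 167937040). It was at 38.6, 34.1 and 41.2 CPM with ERG and 75.2, 101 and 79.0 CPM with vector, with no overlap. The fall was 2.24-fold (log2 -1.17, SE 0.16, edgeR adjusted p = 0.0202). It did not pass without ERG replicate 1 or 2 or without vector replicate 2 or 3 (edgeR adjusted p = 0.116, 0.123, 0.0743 and 0.0664). Of all tested genes 0, 0, 19 and 51 passed in those fits. MPC2 passed in DESeq2 (adjusted p = 8.26e-08) and with the set term (edgeR adjusted p = 0.000491). The exons of MPC2 overlap those of DCAF6 on the other strand. No source used here says whether reads kept their strand, so reads from the bases that the 2 genes share cannot be told apart. PKLR overlaps HCN3 in the same way.

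Of 13 regulators of the HIF pathway 1 fell (0.732% of all genes did), HIF3A, a HIF subunit of which some forms act as inhibitors (chromosome 19, 46297046 to 46343433). It was at 1.96, 1.17 and 1.83 CPM with ERG and 4.84, 7.77 and 4.79 CPM with vector, a 3.51-fold fall at a low level (log2 -1.81, SE 0.35, edgeR adjusted p = 0.0484). It did not pass without any 1 of the 3 ERG libraries or without vector replicate 2 or 3 (0.067 to 0.234). Of all tested genes 0 passed without ERG replicate 1 or 2, 441 without ERG replicate 3, and 19 and 51 without vector replicates 2 and 3. HIF3A passed in DESeq2 (adjusted p = 0.00028) and with the set term (edgeR adjusted p = 0.0092). With ERG replicates 1 and 2 counted as 1 library, none of PKLR, MPC2 and HIF3A passed (edgeR adjusted p = 0.081, 0.117 and 0.188). In that fit 0 of all 14203 tested genes passed. Of 8 pentose phosphate genes 0 passed, 0 had an unadjusted p under 0.05 and 0 passed in DESeq2. The shares over all genes were 2.20%, 15.9% and 7.08%. The most counted of the 8 were TALDO1, at 362, 358 and 419 CPM with ERG and 417, 381 and 419 CPM with vector, and TKT, at 346 ± 96.4 CPM with ERG and 429 ± 67.3 CPM with vector.

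Of 34 other HIF targets 0 passed in edgeR, 6 (17.6%) had an unadjusted p under 0.05 and 2 passed in DESeq2. The shares over all genes were 2.20%, 15.9% and 7.08%. The 2 most counted were TFRC, the transferrin receptor, and DDIT4, an inhibitor of mTOR signalling. TFRC is also 1 of the 8 erythroid markers. TFRC was at 749, 745 and 1724 CPM with ERG and 1175, 2701 and 2650 CPM with vector (log2 -1.02, edgeR adjusted p = 0.318). DDIT4 was at 480, 468 and 74.1 CPM with ERG and 715, 115 and 79.7 CPM with vector, high in the libraries where VEGFA was high. The 2 genes that DESeq2 called, named after their values were seen, were BHLHE40 and NDRG1. BHLHE40, a transcriptional repressor, was at 152, 163 and 83.2 CPM with ERG and 78.9, 26.9 and 36.9 CPM with vector (log2 1.48, edgeR adjusted p = 0.14, DESeq2 adjusted p = 0.0114). NDRG1 was at 3.21, 2.81 and 1.70 CPM with ERG and 0.616, 1.07 and 0.489 CPM with vector (log2 1.79, edgeR adjusted p = 0.0977, DESeq2 adjusted p = 0.0259). With the set term 7 of the 34 passed, 5 higher and 2 lower, where 13.2% of all genes passed. The lower ones were TFRC (log2 -0.64, edgeR adjusted p = 0.00308) and DDIT4 (-0.50, 0.039). BHLHE40 (1.19, 0.000576) and NDRG1 (1.61, 0.044) were among the higher. With ERG replicates 1 and 2 also counted as 1 library, DDIT4 and NDRG1 did not pass (0.119 and 0.105).

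**Figure D5:**
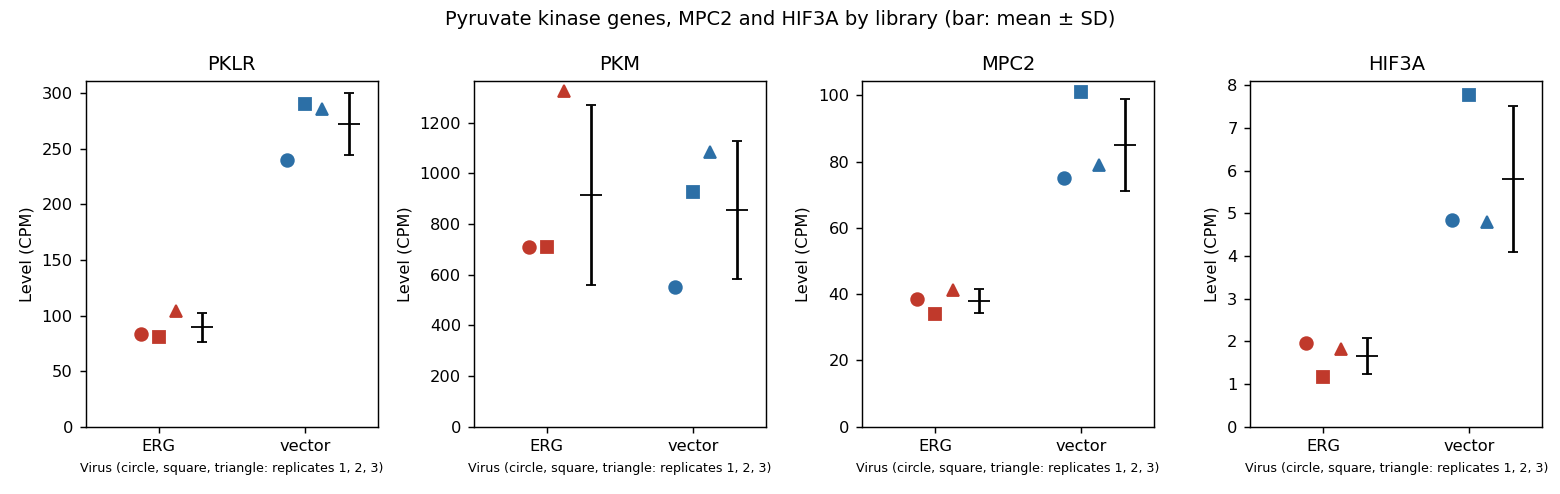
Level in CPM of PKLR, PKM, MPC2 and HIF3A by library, ERG left and vector right, with replicates as symbols and bars for mean ± SD (n = 3). PKLR lies at 80.5 to 104 CPM with ERG and 240 to 290 CPM with vector, MPC2 at 34.1 to 41.2 CPM with ERG and 75.2 to 101 CPM with vector, HIF3A at 1.17 to 1.96 CPM with ERG and 4.79 to 7.77 CPM with vector, and PKM overlaps between the groups.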

How the data were processed

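Poly-A RNA of 6 libraries (3 ERG, 3 vector) was sequenced. The deposited table holds whole-number read counts per gene, although its name says CPM. The authors' notes name hg38 and edgeR 3.32.1, per the submitters' processing notes, and the aligner, counter, annotation and strand setting are not given in the sources used here. The second-highest CPM of any listed gene was at least 1.01, so a low-count filter may precede deposit. Columns headed NC were taken as vector, the one group besides ERG, and 0 columns were left unused.

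From the counts, genes reaching 1 CPM in 3 or more libraries were kept (14203, leaving out 618), scaled by TMM and tested with edgeR 4.0.16 (limma 3.58.1, R 4.3.3): quasi-likelihood test, group as the only term, two-sided, Benjamini-Hochberg over all tested genes at 0.05. Intervals are 95% from the fit's moderated degrees of freedom, and SE is the log2 change over the root of F. Pairs of genes were compared by an exact permutation test of log2 ratios of raw counts (with 1 added to each count as an alternative). DESeq2 1.42.0, RLE scaling, no filter, a replicate block, each library left out and ERG replicates 1 and 2 summed were alternatives; the library set term was added after seeing the data. Of the tests, the edgeR fit with group as the only term was tried on simulated counts. Those counts had the same dispersion for every gene and no library sets. Coordinates and exon lengths come from GENCODE release 29, promoters from RefSeq. Members and lists were chosen with earlier results of these data known. Named from each further list were the genes that passed or, where none did, the 2 with the highest mean CPM. Totals of 10257141 to 14803031 counts set the precision, and intervals cover these libraries only.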

Additional observations from a re-analysis of the deposited data

How the results depend on the processing

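The count of all genes past the threshold was 313, 310 with RLE scaling and 321 without the filter, but 1006 with DESeq2, 905 with the replicate block, 1869 with the library set term (1001 with ERG replicates 1 and 2 also summed) and 0 with those replicates summed alone (edgeR, 1277 at unadjusted p under 0.05). Leaving out 1 library gave 0 to 441, with 0 without ERG replicate 1 or 2 (1278 and 1256 at an unadjusted 0.05), and 19 or 51 when vector replicate 2 or 3 was dropped. Members past it, 0 in the reported fit, were 1 with DESeq2 (SLC2A3), 2 with the block (PFKFB4 and SLC2A3), 3 with the set term, 1 with the set term and summing, and 0 to 2 with a library left out. The 3 genes of the further lists became 5 with DESeq2, 6 with the block, 10 with the set term, 7 with the set term and summing, 0 with summing alone and 0 to 5 with a library left out. Deviations of same-numbered libraries correlated at 0.628, -0.285 and 0.589. Replicates 1 and 3 correlated best with the same number, while ERG 2 and vector 2 each correlated best with another number. These values do not settle whether the replicate numbers pair the libraries.

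Over 13 alternatives 15 members changed sign somewhere, none of them called there. With summing, the set term, and both, log2 values of opposite sign were 0.048, 0.20 and 0.18 for HK2, 0.10, 0.18 and 0.19 for ALDOA, and 0.12, 0.24 and 0.24 for PGK1. They were -0.15, -0.50 and -0.48 for DDIT4, which is no member and passed as lower with the set term (edgeR adjusted p = 0.039). With the set term and with both they were 0.081 and 0.10 for GPI, 0.093 and 0.11 for LDHA, and -0.069 and -0.045 for MXI1. ENO1 gave -0.0045 with RLE scaling and DESeq2 and -0.0094 with the block. With a library left out the ranges were -0.28 to 0.14 (HK2), -0.67 to 0.078 (GPI), -0.041 to 0.22 (PFKL), -0.12 to 0.14 (PFKM), -0.18 to 0.023 (PFKP), -0.25 to 0.16 (ALDOA), -0.13 to 0.27 (GAPDH), -0.41 to 0.16 (PGK1), -0.35 to 0.16 (ENO1), -0.27 to 0.31 (PKM), -0.056 to 0.51 (PDK3), -0.30 to 0.58 (BNIP3), -0.12 to 0.027 (BNIP3L), -0.0094 to 0.64 (MXI1) and -0.28 to 1.81 (DDIT4). Where a setting uses fewer libraries the test has fewer degrees of freedom; otherwise the cause was not tested. Counting error is large for genes of few counts, such as BNIP3 (53 to 215 per library).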
